A study of Mus musculus with 9 samples.

Results

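The angiotensin and endothelin systems were followed as 8 genes: *Agt*, *Ace*, *Agtr1a* and *Agtr2* of the angiotensin system and *Edn1*, *Ece1*, *Ednra* and *Ednrb* of the endothelin system. They were chosen by name as the precursor or peptide, the processing enzyme and the 2 receptors of each system, and all 8 were found with 1 identifier each among the 55416 genes in the table. RNA-Seq was performed on 9 libraries of subcultured AdvSca1-SM cells, which are Sca1-expressing vascular progenitor cells derived from smooth muscle cells. The cells were sorted as YFP+ Sca1+ from arteries (aorta and carotid) pooled over 8-week-old SM22α-Cre-YFP mice, in which Cre is driven by the promoter of a smooth muscle gene, so that a rare Sca1+ medial smooth muscle cell can carry the same label. Stem cells (3 libraries) received vehicle and were described as kept in stem cell media, TGF-β cells (3 libraries) received 5 ng/mL TGF-β1 and Both cells (3 libraries) received 5 ng/mL TGF-β1 with 50 μM PFI-3, a compound directed at the bromodomain of Brg1, a chromatin remodeling protein. All cells received 0.1% DMSO for 72 hours. All cells were maintained in stem cell media, which held 10% FBS and the basic fibroblast and epidermal growth factors. The stimulated cells were in DMEM with 0.1% FBS, and no separate serum level during treatment is listed for Stem. Medium, with its serum and growth factors, and TGF-β1 therefore cannot be told apart between Stem and either stimulated group. TGF-β and Both differed in PFI-3. The comparisons address which genes differed under profibrotic stimulation and which differed further when PFI-3 was added.

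In the angiotensin system, angiotensinogen, the product of *Agt*, is cut by renin, and the resulting peptide is cut again by angiotensin-converting enzyme (*Ace*) to the active angiotensin peptide. That peptide acts through the AT1 receptor, which in arteries drives contraction, growth and matrix production, and through the AT2 receptor (*Agtr2*), which often opposes these actions and is known for its abundance in fetal mesenchyme. In the endothelin system, the precursor encoded by *Edn1* is cut by endothelin-converting enzyme (*Ece1*) to a strong vasoconstrictor peptide, which acts through the ETA receptor (*Ednra*) of contractile cells and the ETB receptor (*Ednrb*), which is known for clearance of the peptide and, in endothelium, for vasodilation.

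Total counts per library were between 35686291 and 47741128, and 3 counts, taken as the limit of detection, corresponded to between 2.63 and 3.26 normalized counts (counts scaled to 1 common library size). Stem replicate 2 stood apart from the other Stem libraries: the chi-square per degree of freedom of its counts against theirs was 126 and 103, compared with 7.34 between Stem replicates 1 and 3 and with 5.87 to 16 within the other groups. It held the highest Stem value for 39.5% of all tested genes and for 5 of the 8 angiotensin and endothelin genes (*Ace*, *Agtr1a*, *Edn1*, *Ednra* and *Ednrb*), and values without it are therefore given beside the results. Hepatocyte markers were checked because the extraction text names hepatic tissue; the 8 of them summed to at most 14.6 normalized counts in any library, and *Alb* had at most 2 counts. Progenitor markers (6 genes, *Ly6a* and *Cd34* among them) summed to between 54276 and 62685 normalized counts in Stem, between 12792 and 12944 in TGF-β and between 12714 and 13346 in Both, and 8 smooth muscle markers to between 10616 and 13334, between 22735 and 25198 and between 17436 and 18369. The first sum was mostly *Pdgfra*, and between Stem and TGF-β 4 progenitor markers fell while *Klf4* and *Gli1* rose; the second was mostly *Acta2* and *Tagln*, which rose, while *Myh11* and *Lmod1* fell.

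The promoters of the members are shown first, so that the 4 genes that fell past the 2-fold threshold can be set beside 2 of the 3 endothelin genes that did not. Promoters of 7 of the 8 genes were matched in RefSeq (build GRCm38.p6), 11 in all, since *Ace* has 2 annotated starts and *Ece1* has 4; *Agtr1a* was not matched. Each sequence is the 250 bases upstream of the annotated start, 5′ to 3′ on the gene's strand. Capitals mark a TATA box (TATAAA), a SMAD site (CAGAC), an AP-1 site (TGANTCA), a TEAD site (GGAATG) or a CArG box, searched on both strands.
Agtr2 (chrX:21484374-21484623, plus strand): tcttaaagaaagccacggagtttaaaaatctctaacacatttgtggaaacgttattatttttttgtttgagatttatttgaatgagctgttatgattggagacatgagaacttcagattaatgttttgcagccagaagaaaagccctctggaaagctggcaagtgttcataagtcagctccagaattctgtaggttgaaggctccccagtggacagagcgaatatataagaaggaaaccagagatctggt
Ace, first start (chr11:105967698-105967947, plus strand): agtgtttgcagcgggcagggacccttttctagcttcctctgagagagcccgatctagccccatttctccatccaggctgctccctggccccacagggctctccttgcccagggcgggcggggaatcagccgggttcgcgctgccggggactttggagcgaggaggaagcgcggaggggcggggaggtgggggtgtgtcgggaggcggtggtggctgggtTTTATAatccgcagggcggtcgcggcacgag
Agt (chr8:124569707-124569956, minus strand): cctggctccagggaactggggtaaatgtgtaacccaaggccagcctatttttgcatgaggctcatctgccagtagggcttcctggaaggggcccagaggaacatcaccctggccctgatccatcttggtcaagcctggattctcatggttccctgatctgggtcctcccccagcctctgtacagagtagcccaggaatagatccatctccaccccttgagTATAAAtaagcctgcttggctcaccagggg
Ednrb (chr14:103843702-103843951, minus strand): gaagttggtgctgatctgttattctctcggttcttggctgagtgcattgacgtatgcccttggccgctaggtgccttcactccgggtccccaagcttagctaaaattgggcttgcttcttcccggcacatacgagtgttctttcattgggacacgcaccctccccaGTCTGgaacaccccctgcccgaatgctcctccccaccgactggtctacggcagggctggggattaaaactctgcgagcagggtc
Ednra (chr8:77724453-77724702, minus strand): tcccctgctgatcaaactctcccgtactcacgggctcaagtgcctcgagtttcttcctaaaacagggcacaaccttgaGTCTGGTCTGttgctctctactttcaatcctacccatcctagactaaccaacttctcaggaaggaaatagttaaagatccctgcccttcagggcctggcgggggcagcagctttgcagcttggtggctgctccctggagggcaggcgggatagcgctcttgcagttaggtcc
Edn1 (chr13:42301226-42301475, plus strand): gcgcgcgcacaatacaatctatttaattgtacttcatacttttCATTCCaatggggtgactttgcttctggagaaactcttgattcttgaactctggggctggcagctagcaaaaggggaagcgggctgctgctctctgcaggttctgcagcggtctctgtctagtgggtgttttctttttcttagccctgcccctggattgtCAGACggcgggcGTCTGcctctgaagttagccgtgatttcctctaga

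The *Agt* window held a TATA box at positions -30 to -25, counted back from the base before the start, and the first *Ace* window held one on the reverse strand at -31 to -26, where 12.4% of 32851 promoter windows of this length held that motif. The *Agtr2* window held none of the 5 motifs as spelled here and had the lowest GC content of the members, at 38.4%, compared with 67.2% for the first *Ace* window. Only the letters TATAAA were searched as a TATA box, so the stretch tatataa near the end of the *Agtr2* window was not marked. SMAD sites were present in the windows of both endothelin receptors, at -84 to -80 in *Ednrb* and as a pair of adjacent copies at -172 to -168 and -167 to -163 in *Ednra*. *Edn1* had 2 SMAD sites, at -47 to -43 and -35 to -31 on opposite strands, and a TEAD site at -207 to -202. The SMAD letters occurred in 42.2% of all windows and the TEAD letters in 12.6%, against 6.75% for the AP-1 site and 1.47% for the CArG box; neither of these was matched in a printed window, and no matches overlapped. *Ednrb*, which fell, and *Ednra*, which did not pass the test between Stem and TGF-β, thus both held SMAD letters. *Ece1*, the third endothelin gene short of the threshold, is not printed, and 2 of its 4 windows held SMAD letters.

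Between Stem and TGF-β, *Agtr2*, *Ace* and *Agt* of the angiotensin system and *Ednrb*, *Edn1* and *Ece1* of the endothelin system fell, and none of the 7 genes tested rose. Of the 8 genes, 7 passed the filter on low counts, and 4 of these passed the threshold of a change of over 2-fold with an adjusted p below 0.05, from the quasi-likelihood test of edgeR with Benjamini-Hochberg adjustment over all genes tested. All 4 were lower in TGF-β: *Agtr2*, *Ace*, *Ednrb* and *Agt*. Among all 14879 tested genes, 25.1% passed this threshold, and 14.5% did so in the lower direction. By the adjusted p alone, 6 of 7 genes fell (*Edn1* and *Ece1* in addition), where 75.0% of all tested genes changed. The median log2 fold change of the 7 genes was -2.03, and that of all tested genes was -0.00. Without Stem replicate 2, the same 4 genes passed the threshold, and the same 6 passed the adjusted p alone. Scaling by total counts moved the median of all tested genes by -0.12 on the log2 scale, and the same 4 genes passed. In such bulk libraries, fewer cells of a type and less RNA per cell cannot be told apart.

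**Figure D1:**
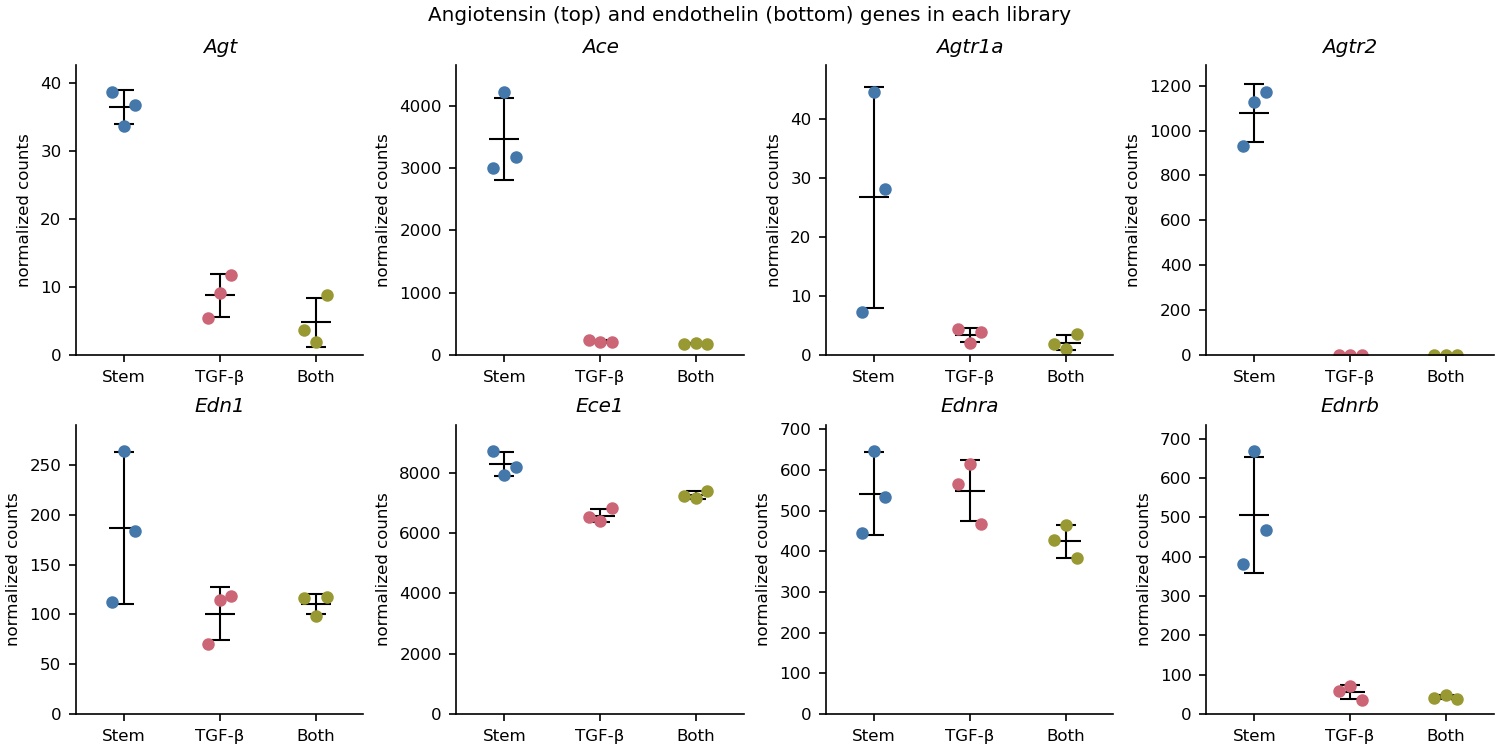
Normalized counts (vertical axes, linear and starting at 0) of the 4 angiotensin genes (top) and the 4 endothelin genes (bottom) in each of the 9 libraries; points are libraries, the long bar is the group mean and the error bars are 1 SD (n = 3). *Agtr2* lay between 931 and 1174 normalized counts in Stem and at the limit of detection in TGF-β and Both, whereas *Ednra* overlapped between Stem and TGF-β.

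The AT2 receptor gene *Agtr2* had 931, 1126 and 1174 normalized counts in the 3 Stem libraries (1077 ± 129, SD, n = 3). It had 1 count in each of the 3 TGF-β libraries, and 0, 0 and 2 counts in the Both libraries. Every stimulated library was thus at or under the limit of detection, and the groups did not come near each other. Set against 3 counts per library, the TGF-β level of *Agtr2* was at least 351-fold lower (adjusted p = 6.33e-12) and the Both level at least 389-fold lower (adjusted p = 5.87e-12) by edgeR's quasi-likelihood test. Without Stem replicate 2, the bound in TGF-β was 343-fold. No fold is given between TGF-β and Both, since both groups were under the limit.

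*Ace*, which makes the active angiotensin peptide and degrades bradykinin, was measured at 3007, 4230 and 3175 normalized counts in Stem (3471 ± 663, SD, n = 3). It was at 246, 215 and 203 in TGF-β (221 ± 22.2) and at 179, 184 and 178 in Both (180 ± 2.88). All 6 stimulated libraries were far below the lowest Stem library. *Ace* fell 15.7-fold from Stem to TGF-β (log2 fold change -3.97, SE 0.129, adjusted p = 5.68e-11), and the log2 fold change without Stem replicate 2 was -3.80. The Both libraries were all below the TGF-β libraries, but this difference (log2 fold change -0.29, SE 0.156, 95% confidence interval -0.63 to 0.05) did not pass the test, with an adjusted p of 0.283 in edgeR.

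Angiotensinogen mRNA (*Agt*) was scarce in every group, at 38.7, 33.7 and 36.8 normalized counts in Stem (36.4 ± 2.55, SD, n = 3). In TGF-β it was at 5.4, 9.13 and 11.7 (8.75 ± 3.18), and in Both at 3.6, 1.97 and 8.78 (4.78 ± 3.55). The Stem libraries did not overlap with the stimulated ones, whereas the TGF-β and Both libraries overlapped. *Agt* fell 4.08-fold from Stem to TGF-β (log2 fold change -2.03, SE 0.339, adjusted p = 1.62e-04 in edgeR). The interval of the TGF-β versus Both difference, -1.90 to 0.22 on the log2 scale, was wide at these counts.

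*Agtr1a*, one of a pair of near-identical mouse genes for the AT1 receptor, was not kept by the filter on low counts, because Stem replicate 1 had too few reads. Its raw counts were 7, 41 and 26 in Stem, 4, 2 and 4 in TGF-β and 2, 1 and 4 in Both. The lowest Stem library was therefore close to the stimulated libraries. With DESeq2, which kept the gene and so called 5 of 8 genes, *Agtr1a* fell from Stem to TGF-β by 2.96 on the log2 scale (adjusted p = 3.08e-04). The share of all genes that DESeq2 called is not given. Reads from *Agtr1a* and its copy *Agtr1b* may be split uncertainly, and their summed normalized counts were 19.9, 97.8 and 53 in Stem, 7.55, 4.06 and 4.88 in TGF-β and 6.3, 4.94 and 6.14 in Both. The sums did not overlap between Stem and the stimulated groups, and Stem replicate 2 was again the highest library. Per kb of exon, *Agtr2* was 41.5-fold higher than *Agtr1a* in Stem, with log2 ratios of *Agtr1a* to *Agtr2* of -6.63, -4.39 and -5.10 in the 3 libraries (mean -5.37, SD 1.15). The mean log2 ratio was -4.74 without Stem replicate 1 and -5.87 without Stem replicate 2. This ratio leaves out *Agtr1b*, whose mean in Stem was 14.1 normalized counts per kb, against 9.57 for *Agtr1a*. The ratio was not compared across groups, since *Agtr2* was under the limit of detection in TGF-β and Both.

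The endothelin ligand gene *Edn1* had 112, 264 and 184 normalized counts in Stem (187 ± 76, SD, n = 3). TGF-β libraries had 70.1, 114 and 118 (101 ± 26.5), and Both libraries had 116, 98.7 and 117 (111 ± 10.2). Stem replicate 1 lay within the range of the stimulated libraries, so the groups overlapped. *Edn1* fell 1.84-fold from Stem to TGF-β by edgeR's adjusted p (0.0104; log2 fold change -0.88, SE 0.269), short of 2-fold, and by 0.54 on the log2 scale without Stem replicate 2 (adjusted p = 0.0453). Leaving out Stem replicate 1 or TGF-β replicate 3 instead moved the log2 fold change past 2-fold, to -1.14 and -1.01. TGF-β and Both differed by 0.13 on the log2 scale, with an interval of -0.48 to 0.74.

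*Ece1*, the endothelin-converting enzyme, was the most abundant of the 8 genes per kb of exon in every group. It was at 8725, 7939 and 8179 normalized counts in Stem (8281 ± 403, SD, n = 3), 6521, 6397 and 6815 in TGF-β (6578 ± 214) and 7244, 7157 and 7407 in Both (7269 ± 127). The 3 groups did not overlap, with Both between TGF-β and Stem. From Stem to TGF-β, *Ece1* fell 1.26-fold (log2 fold change -0.33, SE 0.0431, adjusted p = 1.87e-05 in edgeR). The 1.11-fold higher level in Both than in TGF-β had an interval of 0.05 to 0.24 on the log2 scale and an adjusted p of 0.0598 in edgeR; DESeq2 gave 0.0307.

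The endothelin receptors were *Ednra* and *Ednrb*. *Ednra*, the receptor of contractile cells, was at 445, 647 and 533 normalized counts in Stem (542 ± 101, SD, n = 3), 565, 614 and 468 in TGF-β (549 ± 74.3) and 427, 464 and 383 in Both (424 ± 40.7). Stem and TGF-β overlapped, with a log2 fold change of 0.02 and an interval of -0.27 to 0.31 (adjusted p = 0.902, edgeR), so a change of 2-fold in either direction lay outside the interval. When libraries were scaled by total counts the value was -0.10, close to the shift of all genes, again without passing the test. *Ednrb* was at 382, 669 and 468 normalized counts in Stem (507 ± 147), against 59.4, 72 and 36.1 in TGF-β (55.8 ± 18.2) and 42.3, 48.4 and 39.5 in Both (43.4 ± 4.53). Every stimulated library was below every Stem library by a wide margin. *Ednrb* fell 9.09-fold from Stem to TGF-β (log2 fold change -3.18, SE 0.239, adjusted p = 1.23e-07 in edgeR), and the log2 fold change without Stem replicate 2 was -2.93.

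Per kb of exon, the endothelin receptors were near parity in Stem, and *Ednra* was in excess in both stimulated groups. The log2 ratio of *Ednra* to *Ednrb* was -0.14, -0.41 and -0.17 in Stem (mean -0.24, SD 0.15), 2.88, 2.72 and 3.32 in TGF-β (mean 2.97, SD 0.31) and 2.96, 2.89 and 2.90 in Both (mean 2.92, SD 0.04). All 6 stimulated libraries were above all 3 Stem libraries. The ratio was 9.28-fold higher in TGF-β than in Stem, a difference of 3.21 on the log2 scale (exact permutation test, two-sided, p = 0.1, which is the smallest p that 3 against 3 libraries allow). TGF-β and Both overlapped, with a difference of -0.06 (exact p = 1). Without Stem replicate 2, the difference between Stem and TGF-β was 3.13.

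**Figure D2:**
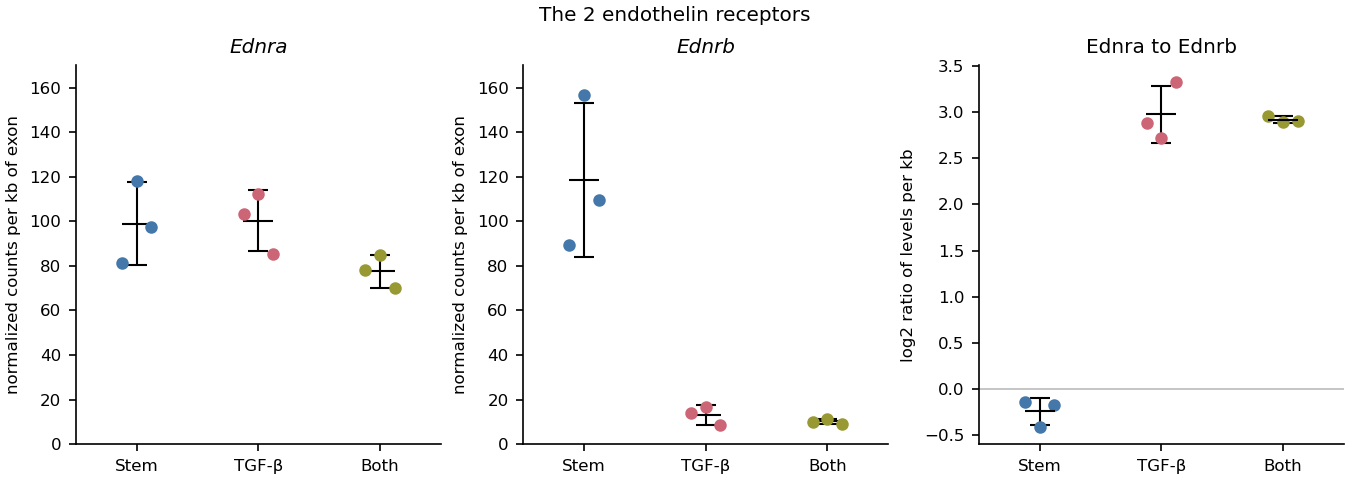
Levels of *Ednra* (left) and *Ednrb* (middle) in normalized counts per kb of exon, from 0, and the log2 ratio of these levels (right) in each library; points are libraries, and bars are the group mean with 1 SD (n = 3). The ratio was close to 0 in Stem and between 2.72 and 3.32 in the 6 stimulated libraries, while the *Ednra* level itself overlapped between Stem and TGF-β.

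Between TGF-β and Both, 0 of the 7 tested genes passed either the threshold or the adjusted p alone, where 0.632% and 8.92% of all tested genes did so. At an unadjusted p below 0.05 there were 2, *Ece1* (higher in Both) and *Ednra* (lower in Both), and by DESeq2's adjusted p there was 1, *Ece1*. In 3 of the genes (*Ace*, *Ece1* and *Ednra*) the TGF-β and Both libraries did not overlap, as was the case for 32.7% of all tested genes. The log2 fold change of *Ednra* was -0.37, with an interval of -0.66 to -0.08 and an adjusted p of 0.109 in edgeR. Without Stem replicate 2, which is in neither group but shares the estimate of the spread, the adjusted p fell below 0.05 for *Ece1* (0.0202), *Ace* (0.0289) and *Ednra* (0.033), and without Stem replicate 1 for *Ece1* (0.0212) and *Ednra* (0.048). All of these differences were smaller than 2-fold. The 8.92% is the share by adjusted p in the main fit. The shares of all tested genes by an unadjusted p, by DESeq2 and in the fits without a library are not given.

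**Figure D3:**
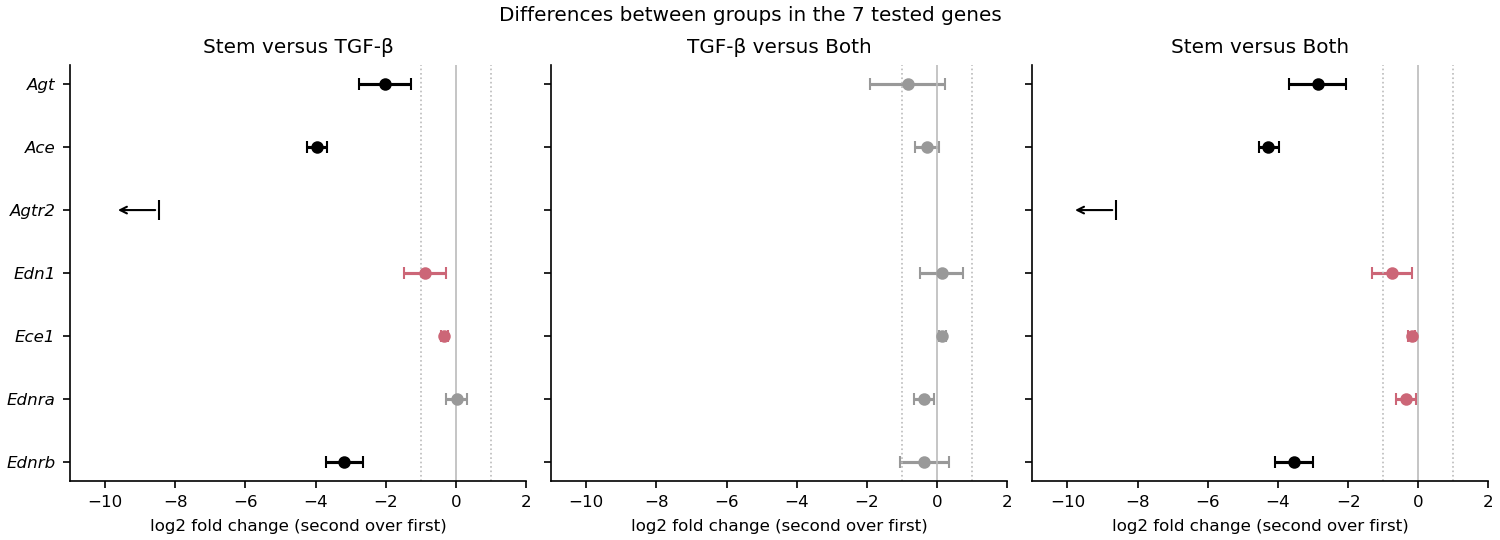
Log2 fold changes (horizontal axis, second group over first) of the 7 tested angiotensin and endothelin genes in the 3 comparisons; bars are 95% confidence intervals from the edgeR fit, dotted lines mark 2-fold, black marks pass the threshold, red marks pass the adjusted p alone and gray marks pass neither. Arrows for *Agtr2* start at the bound set by 3 counts per library (at least 351-fold and at least 389-fold lower), and *Agtr2* has no mark between TGF-β and Both, where both groups were under the limit of detection.

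Between Stem and Both, which share the difference in medium, the same 4 genes passed the threshold, all lower in Both, where 22.8% of all tested genes passed in either direction and 13.2% in the lower one. *Ace* fell 19.2-fold (log2 fold change -4.27), *Ednrb* fell 11.7-fold (-3.55) and *Agt* fell 7.28-fold (-2.86), with *Agtr2* at its bound. The log2 fold change of *Agt* was -3.62 without Both replicate 3. By edgeR's adjusted p alone 7 of 7 were lower, where 73.3% of all tested genes changed. The remaining 3 were *Ece1* (log2 fold change -0.19, adjusted p = 0.0018), *Edn1* (-0.75, 0.0217) and *Ednra* (-0.35, 0.0318). Without Stem replicate 2, 5 of the 7 passed the adjusted p, since *Edn1* (0.115) and *Ednra* (0.15) did not. The call of *Edn1* was also lost without Both replicate 2 (0.068), and that of *Ednra* without Stem replicate 3 (0.0645), Both replicate 1 (0.0684) or Both replicate 3 (0.122). These comparisons share libraries with those above and are not independent of them.

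Levels of different genes were compared per kb of exon. In Stem the order of mean levels, in normalized counts per kb, was *Ece1* (1562 ± 76, SD, n = 3), *Ace* (656 ± 125), *Agtr2* (324 ± 38.7), *Ednrb* (119 ± 34.5), *Ednra* (98.9 ± 18.5), *Edn1* (87.3 ± 35.6), *Agt* (19.2 ± 1.35) and *Agtr1a* (9.57 ± 6.7). The libraries of *Ednrb* and *Ednra*, and of *Ednra* and *Edn1*, overlapped, so these neighbors were not separated. In TGF-β, *Ece1* (1241 ± 40.5) was followed by *Ednra* (100 ± 13.6), *Edn1* (47 ± 12.4), *Ace* (41.9 ± 4.19), *Ednrb* (13.1 ± 4.27), *Agt* (4.63 ± 1.68) and *Agtr1a* (1.23 ± 0.438), with *Agtr2* last and under the limit of detection. *Edn1* and *Ace* overlapped there. Both had the same order as TGF-β, with *Ednra* at 77.5 ± 7.43, *Edn1* at 51.7 ± 4.79 and *Ace* at 34.1 ± 0.545 without overlap, and while *Agt* overlapped with *Agtr1a*, and *Agtr1a* with *Agtr2*. Among the 4 angiotensin and endothelin receptor genes, *Agtr2* thus led in Stem and *Ednra* led in both stimulated groups.

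Markers of endothelium, which is known to express *Ace*, *Edn1*, *Ece1* and *Ednrb*, were set beside these genes. The 10 endothelial markers summed to between 206 and 447 normalized counts in Stem, between 1377 and 1545 in TGF-β and between 1095 and 1270 in Both, and the sum in the stimulated groups was mostly *Erg*. *Cldn5* was at 0 counts in all 9 libraries, *Tie1* had at most 3 counts, *Cdh5* at most 9 and *Pecam1* at most 13. Of the 6 markers tested, between Stem and TGF-β 2 rose and 2 fell by over 2-fold. Those that fell were *Emcn*, at 176, 46.7 and 90.9 normalized counts in the Stem libraries, and *Tek*, at 44, 54.3 and 38.9. The 2 that rose were *Erg* and *Kdr*, the latter from 0, 0 and 2 counts in Stem to 21, 25 and 31 in TGF-β. In Stem replicate 2, *Ace*, *Edn1* and *Ednrb* had their highest Stem values and *Ece1* its lowest. *Emcn* was lowest and *Tek* highest in that library. *Erg* (154, 56.5 and 90.9 in the Stem libraries), *Vwf*, *Egfl7* and *Pecam1* were also lowest there, and no marker other than *Tek* was highest there. Macrophage markers (8 genes) summed to between 507 and 610 normalized counts in Stem, 318 to 349 in TGF-β and 445 to 452 in Both, and adipocyte markers (6 genes) to at most 6.52. The macrophage sum was led by *Cd14*, which fell 2.98-fold between Stem and TGF-β. In the same comparison *Cd68* rose 3.63-fold, from only 7, 1 and 2 counts in Stem. *Csf1r* rose 2.65-fold and was higher again in Both (adjusted p = 0.0149, edgeR). *Adgre1*, *Itgam* and *C1qa* were at 0 counts in all 9 libraries, and *Ptprc* had at most 3 counts. The part of these markers in the results was not tested.

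Of 20 other genes of the angiotensin system, 14 were tested, and between Stem and TGF-β 5 fell and 1 rose past the threshold, with 7 higher and 6 lower by edgeR's adjusted p alone and a median log2 fold change of 0.12. As above, 25.1% of all tested genes passed this threshold and 75.0% the adjusted p alone. The counts of this list and of the next lists between Stem and TGF-β are read against these shares. The renin gene *Ren1* had at most 2 counts in any library, the Mas receptor gene *Mas1* at most 2, and the chymase, cathepsin G and kallikrein genes *Cma1*, *Ctsg* and *Klk1* were at 0 counts in every library. The genes that fell were mainly peptidases of the cell surface. *Mme* (neprilysin), which degrades many vasoactive peptides, fell 38.5-fold, from 1520, 1629 and 1435 normalized counts in Stem to 45.3, 36.5 and 37.1 in TGF-β (adjusted p = 7.98e-13). *Enpep* (aminopeptidase A), which trims angiotensin peptides, fell 11.1-fold, from 573, 713 and 602 to 62.6, 52.7 and 54.7 (adjusted p = 1.06e-10). Both genes stood far below every Stem library in every stimulated library, as *Ace* did. *Agtr1b* had 12.6, 53.2 and 24.9 normalized counts in Stem and was under the limit of detection in TGF-β, a fall of at least 9.85-fold, or of at least 6.1-fold without Stem replicate 2. *Anpep* (aminopeptidase N) fell 2.47-fold, and *Atp6ap2*, which encodes a renin-binding protein, was the gene that rose, 2.21-fold, from 3079, 3556 and 3309 normalized counts to 7105, 7552 and 7301; *Atp6ap2* was added to those named after its values were seen.

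Between TGF-β and Both, 0 of the 14 passed the threshold and 4 passed edgeR's adjusted p alone, 3 of them lower and 1 higher in Both. In this comparison, for this list and the next lists, the shares of all tested genes were 0.632% past the threshold and 8.92% by the adjusted p alone. *Anpep* fell 1.26-fold (log2 fold change -0.34, adjusted p = 0.00284) and *Prep*, an oligopeptidase that cuts angiotensin peptides, fell 1.14-fold (-0.19, adjusted p = 0.00757). *Anpep* was thus lower in TGF-β than in Stem and lower again in Both, whereas *Prep* was 1.65-fold higher in TGF-β than in Stem. The others were *Nln*, lower by 0.25 on the log2 scale, and *Lnpep*, higher by 0.18, both named after their values were seen. At an unadjusted p below 0.05 there were 7, and DESeq2 likewise gave 0 past the threshold and 4 by its adjusted p. The shares of all tested genes by an unadjusted p or by DESeq2 are not given, so these counts cannot be read against them.

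Of 6 other genes of the endothelin system, only *Ece2*, a second converting enzyme, was tested. Its normalized counts were 38.7, 39.1 and 34.6 in Stem, 50.7, 41.6 and 39.1 in TGF-β and 42.3, 45.4 and 35.1 in Both. The 3 groups overlapped, and the log2 fold change from Stem to TGF-β was 0.22 (adjusted p = 0.291, edgeR). The ligand genes *Edn2* and *Edn3* had at most 1 count and 0 counts, so *Edn1* was the endothelin ligand gene with reads in these cells.

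The AT1, ETA and ETB receptors act through G proteins, phospholipase C and protein kinase C, and are damped by arrestins, receptor kinases and RGS proteins. Of 33 such genes, 31 were tested, and between Stem and TGF-β 2 rose and 6 fell past the threshold, with 14 higher and 13 lower by edgeR's adjusted p alone and a median log2 fold change of 0.05. These 8 of 31 past the threshold are close to the share of all tested genes. The 2 that rose were RGS genes, which shorten G protein signals. *Rgs5* rose 51.2-fold, from 130, 120 and 125 normalized counts in Stem to 6535, 7078 and 5615 in TGF-β (adjusted p = 2.69e-11), and *Rgs4* rose 13.2-fold, from 58.6, 43.5 and 55.2 to 758, 667 and 658. *Rgs2*, of the same family, went the other way and fell 6.06-fold, from 168, 191 and 170 to 34.5, 23.3 and 29.3. The protein kinase C gene *Prkcb* fell 12-fold, from 214, 219 and 223 to 18.3, 16.2 and 19.5. In Both, *Rgs5* was the 1 gene of this list past the threshold against TGF-β: it fell 3.03-fold to 2026, 2619 and 1715 normalized counts (log2 fold change -1.60, adjusted p = 2.77e-05). By adjusted p alone 6 fell and 1 rose in Both, where 8.92% of all tested genes passed. *Itpr3*, a calcium release channel, was among those that fell, by 1.24-fold (adjusted p = 3.90e-04, edgeR). *Rgs5* thus lay between Stem and TGF-β in Both.

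Of 25 receptors for other vasoactive signals, 23 were tested, and between Stem and TGF-β 9 fell and 4 rose past the threshold, with a median log2 fold change of -0.63. *S1pr3*, a sphingosine 1-phosphate receptor, fell 20.8-fold from 1116, 1464 and 1424 normalized counts to 52.9, 77.1 and 61.5 (adjusted p = 7.12e-11), and the natriuretic peptide receptor *Npr1* fell 8-fold from 187, 137 and 160 to 20.5, 17.2 and 22.5. The serotonin receptor *Htr2b*, under the limit of detection in Stem, reached 86.3, 74 and 85.9 normalized counts in TGF-β, a rise of at least 25.5-fold. The nucleotide receptor *P2ry6* rose 11.6-fold from 41.9, 36.9 and 41.1 to 474, 452 and 472. Vasoactive receptors therefore changed in both directions, and 9 of the 13 past the threshold fell. Among all tested genes, 2164 of the 3739 past the threshold fell. Between TGF-β and Both, 3 rose and 3 fell by edgeR's adjusted p alone, where 8.92% of all tested genes passed. *P2ry6* fell 1.55-fold to 285, 332 and 287 normalized counts (adjusted p = 4.95e-04), and the thrombin receptor *F2r* rose 1.16-fold (adjusted p = 0.0124). The 1 past the threshold was the bradykinin receptor *Bdkrb1*, named after its values were seen, at 4, 3 and 3 counts in TGF-β and 7, 10 and 21 in Both (adjusted p = 0.0476), and this call was lost under several alternatives.

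**Figure D4:**
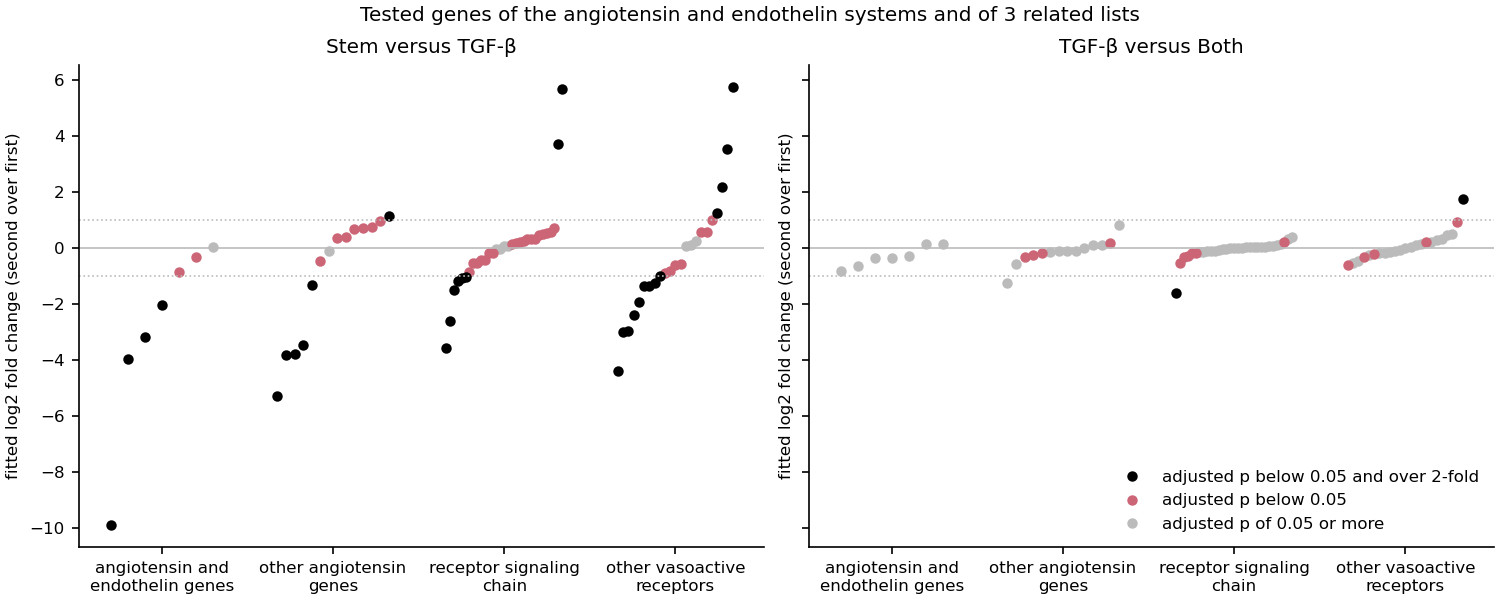
Fitted log2 fold changes (vertical axis, second group over first) of the tested genes of 4 lists between Stem and TGF-β (left) and between TGF-β and Both (right), ordered within each list; each point is a gene, and dotted lines mark 2-fold. On the left the 4 black points of the angiotensin and endothelin genes are all below -1, the lowest being *Agtr2*, whose fitted value depends on the prior count; on the right none of that list is black.

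For each tested member, the genes whose centered log2 levels ran closest to it over the 9 libraries were found by Euclidean distance among 10877 genes whose mean was 100 normalized counts or more. The closest to *Ace* were *Islr* (distance 0.346), with group means of 7355, 470 and 424 normalized counts in Stem, TGF-β and Both, and *Clca3a1* (0.515). The closest to *Ednrb* was *Ly6a*, the gene of the Sca1 antigen used to sort the cells (distance 0.717; group means 7635, 941 and 734), followed by *Galnt13* (0.872). *Ephb1* (3.28; group means 433, 1.31 and 0) and *Clec3b* (4.31) were nearest to *Agtr2*. Since *Agtr2* was under the limit of detection in TGF-β and Both, these distances depend on such low counts. They do not show how close the match is. *Nfasc* (1.4) and *C1qtnf7* (1.6) were nearest to *Agt*, and *B3gnt5* (0.694) and *Gm42778* (0.711) to *Edn1*. The nearest to *Ece1* were *Gtf3c5* (0.0826) and *Nipbl* (0.0885), and to *Ednra* *Pcdh18* (0.279) and *Zfp125* (0.325). Distances are smaller for genes that vary little, so they do not rank the members against each other.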

How the data were processed

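RNA-Seq of AdvSca1-SM cells gave 9 libraries, 3 in each group. The table the authors deposited holds unnormalized read counts for each Ensembl gene and library. The processing notes name HISAT2 2.2.1, SAMtools 1.13, HTSeq 0.11.3 and GRCm39, whereas the paper's methods name STAR for alignment; the strand setting and the handling of multimapped reads are not given in the sources used here, so antisense and near-identical genes are uncertain. Total counts were 35686291 to 47741128. Symbols were matched for 52083 of 55416 genes (98.1% of counts). Exon lengths are from GENCODE M21 and promoters from RefSeq, both of GRCm38.

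Tests were run with edgeR 4.0.16 in R 4.3.3 (filterByExpr, TMM scaling, quasi-likelihood test, a single fit over the 9 libraries by group, Benjamini-Hochberg adjustment over 14879 genes). The threshold, an adjusted p below 0.05 and a log2 change of over 1 in either direction, follows the study, which used DESeq2. Counts multiplied up to a TMM-scaled library of 41184338, the mean of the 9, are called normalized counts. Ratios of receptors used 0.5 added counts. The genes, lists and naming rule were chosen with earlier results of these data known, which gives them no independent standing. Named were all 8 genes, from each other list the 4 largest called changes between Stem and TGF-β and the 2 smallest adjusted p between TGF-β and Both, the 2 nearest genes of each tested gene, and cell type markers. The labels number the replicates and repeat the letters A, B and C in every group. The study calls the replicates independent. The scripts were tested on simulated data. Alternatives were DESeq2 1.42.0, DESeq2's size factors or total counts, a mean filter of 10 counts or none, a prior count of 2, a replicate block, fits of only 6 libraries, edgeR's TREAT, no fold minimum, and leaving out each library. Results for items withheld for evaluation are not reported here.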

Additional observations from a re-analysis of the deposited data

How the results depend on the processing

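For the 7 tested angiotensin and endothelin genes, 389 of 397 single-gene values under the alternatives kept their side of the threshold, 8 crossed to past it (*Edn1*, *Ece1* and *Ednra*, mostly where the fold minimum was dropped) and 0 called values changed sign. In the other lists 3799 of 3926 kept it, 97 crossed to past it and 30 were lost. With no fold minimum, the counts past the test were 7 of the angiotensin and endothelin genes between Stem and Both, 13 other angiotensin genes, 27 signaling genes and 20 vasoactive receptors between Stem and TGF-β, and 4, 7 and 6 of these lists between TGF-β and Both. With no filter on low counts, 2 other endothelin genes passed between Stem and TGF-β, where fewer counts were required. The single vasoactive receptor called between TGF-β and Both, *Bdkrb1*, gave 0 under DESeq2, with only the 6 libraries compared and under TREAT, and 0 to 1 when 1 library was left out (0 without Stem replicate 3, TGF-β replicate 2 or 3, or Both replicate 2 or 3); the cause was not tested. TREAT also gave 0 signaling genes between TGF-β and Both. Between TGF-β and Both, the adjusted p alone was passed by 2 of the 5 angiotensin and endothelin genes kept in a fit of only those 6 libraries (*Ece1*, 0.0134, and *Ednra*, 0.0296) and by 3 of 7 with no filter (*Ednra*, 0.00121, *Ace*, 0.0385, and *Ece1*, 0.0465). The shares of all tested genes that passed in these fits, and with the replicate block below, are not given.

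The sample titles give the replicates the same letters, A, B and C, in every group, in the order of their numbers. Neither letters nor numbers are stated to mark shared cultures, so replicates were not treated as pairs. In their deviations from the group means, same-numbered libraries of different groups correlated between -0.0539 and 0.196 over 9 pairs. Differently numbered ones correlated between -0.181 and 0.167. The replicate 2 libraries correlated positively with each other (0.166, 0.196 and 0.139) and negatively with all other libraries of the other groups. A shared effect of the replicate number was not tested. With the replicate block, the counts past the threshold were 4, 0 and 4 of the angiotensin and endothelin genes, as without it, and *Ece1* (0.019) and *Ednra* (0.0156) passed the adjusted p between TGF-β and Both. Between TGF-β and Both, *Agt* and *Agtr1a* had few counts and *Agtr2* was under the limit of detection, which limits what this depth can show of them.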
